A study of Mus musculus with 4 samples.

Results

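The 9 genes described here encode voltage-gated sodium channel alpha subunits: Scn1a, Scn2a1 (Scn2a in current nomenclature), Scn3a, Scn4a, Scn7a, Scn8a, Scn9a, Scn10a and Scn11a. They were chosen by name from the 17289 genes of a single-cell RNA table of the mouse vagal ganglion complex and were followed across all 27 deposited clusters. The table held 1825 cells in 4 droplet libraries from 5-week-old mice, taken from the jugular and nodose ganglia. Unsorted 1 (270 cells) and unsorted 2 (930 cells) came from wild-type C57BL6 mice, with no selection of cells. Sorted 1 (328 cells) and sorted 2 (297 cells) came from Vglut2Cre-Tomato mice, which carry the Slc17a6tm2(cre)Lowl allele and, from a B6.Cg line, the reporter allele Gt(ROSA)26Sortm14(CAG-tdTomato)Hze. In these mice Cre is made from the Slc17a6 locus, which encodes the vesicular glutamate transporter, and turns on tdTomato in the cells that use that locus and in their descendants. How many animals each library holds is not given in the sources used here, so p-values measure the spread between libraries, which may be technical.

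The clusters were 18 nodose types (NG1 to NG18, 1459 cells), 6 jugular types (JG1 to JG6, 245 cells), satellite glia (51 cells), endothelial cells (51 cells) and sympathetic neurons (19 cells). A library's median depth ran from 33395 to 63793.5 unique molecular identifiers (UMIs) per cell. The median was 41372 in nodose and 37707 in jugular neurons, but only 9930 in satellite glia and 9670 in endothelial cells. Only 1 barcode occurred in more than 1 library. The summed level of 4 nodose markers (P2rx2, Hoxb5, Htr3a, Ntrk2) ran from 7.05 to 32.1 UMIs per 10000 in the nodose types and from 0.282 to 1.79 in the jugular types, and it was 7.96 in sympathetic neurons and 7.26 in satellite glia. The summed jugular markers (Prdm12, Wfdc2, Prrxl1, Tac1) ran from 8.86 to 37.0 in the jugular types, and among nodose types they were highest in NG5. That type (27 cells) is labelled nodose, but its jugular sum of 23.5 was above its nodose sum of 11.0 and above the jugular sums of all jugular types except JG4. Tac1 made up most of this sum in jugular neurons, at 16.5 UMIs per 10000, against 1.65 for Prdm12, 0.403 for Wfdc2 and 2.36 for Prrxl1. Prdm12 and Wfdc2 were nearly absent over all nodose neurons, at 0.00369 and 0.00117. The NG5 sum alone thus does not mark the type as jugular. Sympathetic neurons held 72.5 UMIs per 10000 of Th, Dbh, Npy and Slc18a2 summed. The authors' clusters rest on the same UMIs that are compared here. A p-value for a type or a ganglion therefore measures agreement between libraries and is no separate evidence that the group exists.

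An alpha subunit forms the whole sodium-selective pore of the channel and its voltage sensor, and different genes give channels that open and close at different voltages and speeds. Scn10a and Scn11a encode channels that resist tetrodotoxin and are best known from small sensory neurons, including nociceptors. Scn1a, Scn2a1, Scn3a, Scn8a and Scn9a encode channels that the toxin blocks, and Scn8a and Scn1a are known from fast, myelinated axons. Scn4a is the skeletal muscle channel, and Scn7a encodes an atypical member that senses sodium and is not opened by voltage in the usual way. In vagal sensory neurons these channels carry the impulses from the viscera to the brainstem.

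The family is not scattered evenly over the genome. In the RefSeq annotation of GRCm38.p6, Scn3a, Scn2a1, Scn1a, Scn9a and Scn7a lie in that order on chromosome 2 between 65457118 and 66784910. Scn10a (119608456 to 119719322) and Scn11a (119753763 to 119825456) are neighbours on the minus strand of chromosome 9, while Scn8a is on chromosome 15 and Scn4a on chromosome 11. The RefSeq promoter windows of 300 bases around a start site are shown for the chromosome 9 pair and for Scn1a and Scn8a, because the levels of each pair rose and fell together across types. Each is written 5′ to 3′ on the gene's own strand, and capitals mark a match to the E-box pattern CANNTG, the core bound by many neural basic helix-loop-helix factors.
Scn10a, chr9:119718983-119719282, minus strand: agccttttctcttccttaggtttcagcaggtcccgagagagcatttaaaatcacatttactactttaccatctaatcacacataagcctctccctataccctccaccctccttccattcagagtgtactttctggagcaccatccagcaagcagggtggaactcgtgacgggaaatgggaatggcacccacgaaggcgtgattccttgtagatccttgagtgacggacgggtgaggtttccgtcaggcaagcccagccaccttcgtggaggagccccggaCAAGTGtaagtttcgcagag
Scn11a, chr9:119825407-119825706, minus strand: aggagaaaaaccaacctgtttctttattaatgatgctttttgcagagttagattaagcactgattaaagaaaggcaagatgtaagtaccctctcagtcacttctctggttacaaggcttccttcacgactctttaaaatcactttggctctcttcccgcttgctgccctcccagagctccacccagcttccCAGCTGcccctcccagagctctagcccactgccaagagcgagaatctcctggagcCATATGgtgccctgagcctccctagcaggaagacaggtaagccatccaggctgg
Scn1a, chr2:66440788-66441087, minus strand: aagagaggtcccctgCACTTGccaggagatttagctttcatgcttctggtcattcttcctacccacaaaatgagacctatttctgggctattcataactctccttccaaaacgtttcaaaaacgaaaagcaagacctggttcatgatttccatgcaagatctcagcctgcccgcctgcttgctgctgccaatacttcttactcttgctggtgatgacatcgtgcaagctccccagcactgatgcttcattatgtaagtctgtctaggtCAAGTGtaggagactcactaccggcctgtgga
Scn8a, the upstream of its 2 listed starts, chr15:100870395-100870694, plus strand: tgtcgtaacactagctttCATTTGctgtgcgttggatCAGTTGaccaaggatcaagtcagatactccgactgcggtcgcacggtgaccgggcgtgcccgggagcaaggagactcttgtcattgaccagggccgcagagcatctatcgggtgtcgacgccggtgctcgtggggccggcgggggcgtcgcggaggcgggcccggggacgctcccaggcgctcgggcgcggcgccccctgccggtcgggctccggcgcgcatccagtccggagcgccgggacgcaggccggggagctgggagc
The pattern occurred 1 time in the Scn10a window and 2 times in each of the other windows printed. It is common, with a match in 72.3% of 32851 mouse promoter windows of this length, so the matches describe the letters only. A Runt-type core (TGTGGT, in 16.8% of windows on either strand), a GC box (GGGCGG, in 35.7%) and a TATA box (TATAAA, in 13.6%) had no match in the windows printed. Among members' windows not printed, that of Scn7a, which tracked Scn1a at r = 0.85, had 1 GC box. The 2 Scn2a1 windows had 1 Runt-type core each, and 1 of them a TATA box. The Scn8a window was 70% G and C, against 47.3% for Scn1a, 51.7% for Scn10a and 50.3% for Scn11a, and a median of 52.7% over all windows. RefSeq promoter entries were matched for 8 of the 9 genes and not for Scn3a.

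Over all cells the 9 genes gave 83390 UMIs. Scn9a made up 31.1% of them, Scn7a 23.5%, Scn10a 17.2%, Scn11a 9.44%, Scn8a 6.73%, Scn3a 5.59%, Scn2a1 3.42% and Scn1a 2.97%. Scn4a, the muscle channel, was represented by 34 UMIs in 33 of the 1825 cells and lay below the filter for testing in the comparisons here. Its highest type level was 0.0280 UMIs per 10000, in NG3. The 3′ kit counts 1 end per molecule, so levels were not divided by transcript length, but capture can differ between genes, and shares between genes carry that limit.

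**Figure D1:**
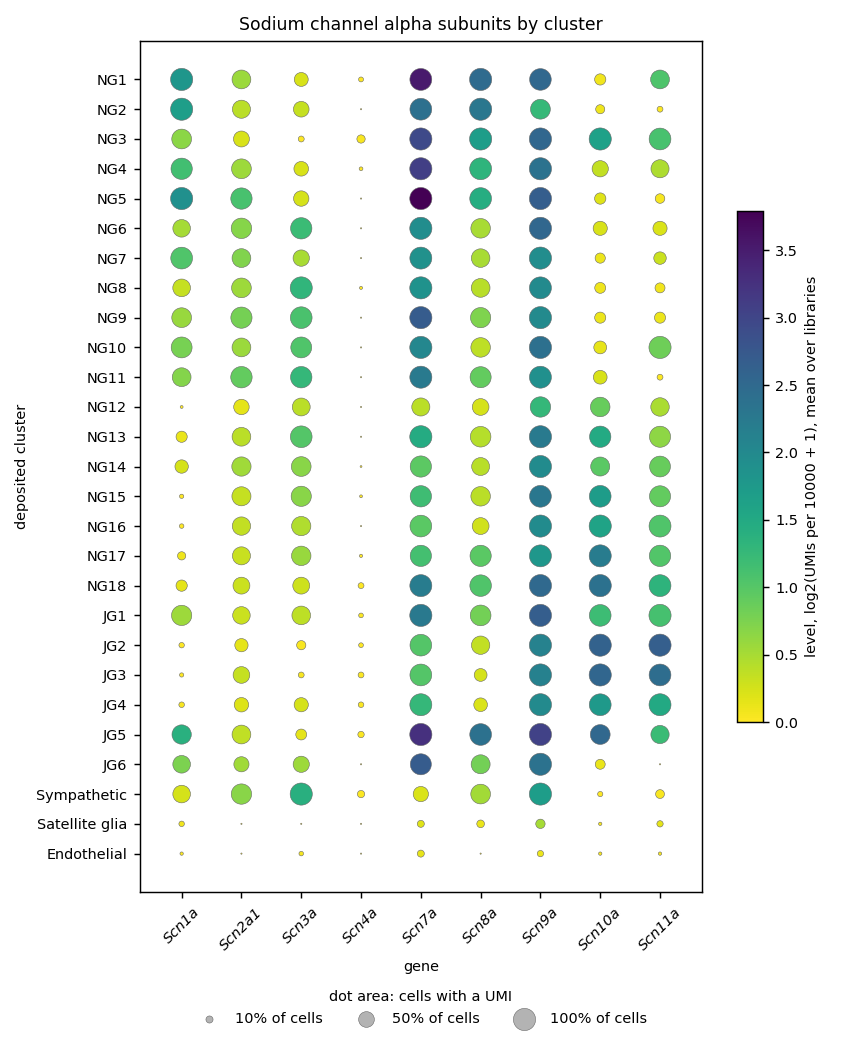
Level and detection of the 9 genes in the 27 deposited clusters. Colour gives log2(UMIs per 10000 + 1) of the mean over libraries with at least 3 cells, and dot area the percent of cells with at least 1 UMI: Scn9a is dark in every neuron type, Scn10a is dark in NG15 to NG18 and most jugular types, Scn1a and Scn7a are darkest in NG5 and NG1, and Scn8a is darkest in NG1, JG5 and NG2.

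Scn10a separated the neuron types into a high and a low set. A type's level is the mean over libraries with at least 3 of its cells, in UMIs per 10000. Levels were at 1 or more in 11 of the 24 neuron types, and 11 other types were at or below 0.270. Between them stood only NG14 at 0.953 and NG12 at 0.834. The jugular types JG2 (5.13 ± 1.64, SD, n = 4 libraries), JG3 (4.88 ± 1.65, n = 4) and JG5 (4.73 ± 1.13, n = 3) led, followed by NG18 (4.22 ± 0.909, n = 4) and NG17 (3.63 ± 1.13, n = 4). The lowest level was in NG1, at 0.0586 ± 0.0599 (n = 4). JG6 was the exception among jugular types, at 0.0886 ± 0.0841 (n = 3). In the ranking of the 24 types, no type's library range lay fully above that of the type ranked next, so neighbours did not differ beyond their spread.

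Each type was tested with limma on log2(UMIs per 10000 + 1) against the other neurons of its ganglion in the same libraries, where at least 2 libraries held 10 or more of its cells. This allowed 14 types: NG1, NG4, NG7 to NG9, NG11 to NG18 and, as the only jugular type, JG2. To be called, a difference needed a log2 size of at least 1 and an adjusted p under 0.05. Of 112 gene and type pairs from the 8 testable members, 6 were called higher and 8 lower, against 0.363% and 0.407% of 122275 pairs over all genes. At an adjusted p under 0.05 and any fold, 34 pairs were higher and 52 lower, against 10.8% and 15.2% of pairs over all genes. The median log2 difference over the members' pairs was -0.14. Only 2 libraries entered for NG1, NG4 and NG12, and 3 for NG7, NG9, NG13, NG18 and JG2, so limma takes most of their spread from other genes.

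For NG18 the Scn10a level was 3.20 in unsorted 1, 3.95 in unsorted 2, 5.38 in sorted 1 and 4.34 in sorted 2. All libraries put the type far above the nodose mean of 1.31 UMIs per 10000. The log2 difference from other nodose neurons was 1.33 (SE 0.10, adjusted p = 1.79e-08, limma, higher in 3 of 3 libraries). NG17 had 2.30, 3.08, 4.62 and 4.52 UMIs per 10000 in the same order, with both sorted libraries above both unsorted ones. Its difference was 1.06 (SE 0.11, adjusted p = 8.55e-05, limma, higher in 4 of 4), and it fell just under the fold threshold without sorted 1 (0.99) or without sorted 2 (0.97). Scn10a was called lower in NG1 (-1.13), NG7 (-1.20), NG8 (-1.18), NG9 (-1.16) and NG11 (-1.04), where levels were 0.0586 to 0.171 UMIs per 10000. The NG7 call was lost without the filter on low genes (adjusted p = 0.0552, limma), and the NG11 difference was -0.99 without the cells in the highest 5% of UMI counts. JG2 was higher than other jugular neurons by 0.71 (SE 0.16, adjusted p = 0.00218, limma), short of the fold threshold.

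Scn11a, the other resistant channel, was concentrated in JG2 and JG3. JG2 had 4.20, 4.89, 3.73 and 8.36 UMIs per 10000 in unsorted 1, unsorted 2, sorted 1 and sorted 2, and JG3 had 3.39, 3.21, 2.98 and 8.40. Sorted 2 was the highest library in both. The JG3 range lay wholly above that of the next type, JG4 (1.82 ± 0.409, n = 4), the only gap of this kind for Scn11a. JG2 was higher than the other jugular neurons by 1.18 on the log2 scale (SE 0.14, adjusted p = 2.27e-06, limma, higher in 3 of 3 libraries). Without sorted 2 the difference was 0.999, just under the threshold. No Scn11a UMI was seen in 30 JG6 cells, which allows a share of up to 10% of cells with a UMI. In the nodose ganglion Scn11a was highest in NG18 (1.53 ± 0.267, n = 4), and NG16, NG17, NG3 and NG1 lay between 1.04 and 1.14.

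The 2 resistant channels largely shared their types, with some types apart. Across the 24 types their log2 levels had a Pearson r of 0.83, and across the 18 nodose types 0.76. These r values describe type means that share the same libraries. NG10 had Scn11a at 0.777 ± 0.211 UMIs per 10000 (n = 2) with Scn10a at 0.102 ± 0.0752, and Scn11a was seen in 18 of its 18 cells. NG1 had Scn11a at 0.547, 0.697, 2.57 and 0.480 with Scn10a at 0.0549, 0.0378, 0 and 0.142 in the 4 libraries. So Scn11a exceeded Scn10a in each NG1 library, while in NG17 and NG18 Scn10a exceeded Scn11a in each. JG5 held Scn10a at 4.73 and Scn11a at 1.31, and JG2 held them at 5.13 and 5.29.

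**Figure D2:**
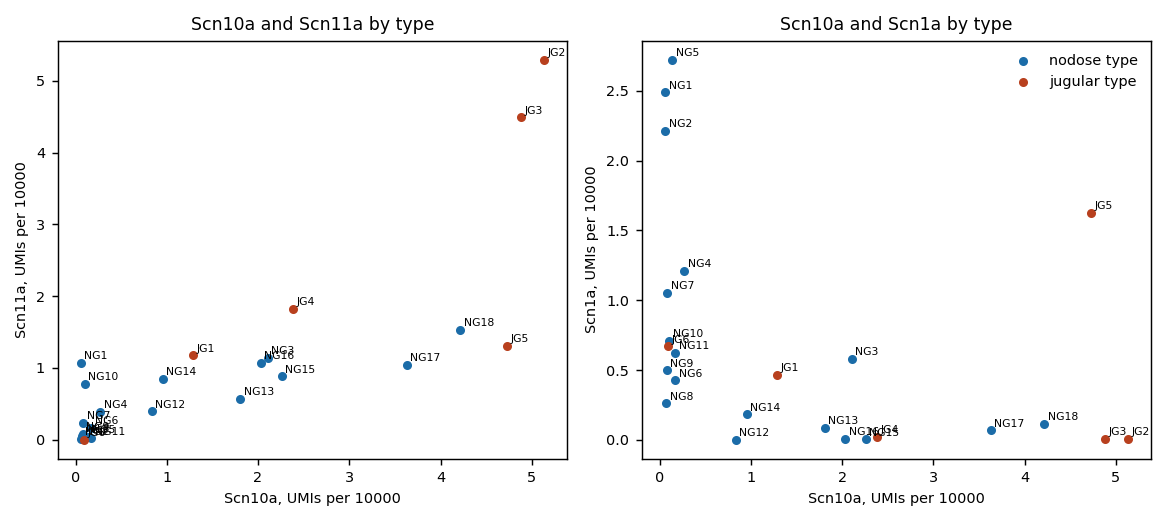
Type levels of Scn10a against Scn11a (left) and Scn1a (right), in UMIs per 10000, as means over libraries, with 1 point per neuron type. Scn10a and Scn11a tend to rise together, with NG1 and NG10 low in Scn10a for their Scn11a. NG17 (3.63 and 1.04) and JG5 (4.73 and 1.31) are low in Scn11a for their Scn10a. Most types lie along 1 of the 2 axes for Scn10a and Scn1a, with JG5 (4.73 and 1.62) high in both. NG3 (2.11 and 0.580) lies off both axes at a middling Scn1a level, against a median over types of 0.447.

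Scn8a, the channel of nodes of Ranvier and axon initial segments, led in a small group of types. Its levels were 4.56 ± 2.12 UMIs per 10000 in NG1 (n = 4), 4.19 ± 0.959 in JG5 (n = 3) and 3.89 ± 0.340 in NG2 (n = 4). NG2 was the highest type in both unsorted libraries and NG1 in both sorted ones. The NG2 libraries (3.95, 3.46, 4.29 and 3.87) lay wholly above those of the next type, NG3 (2.31, 2.87, 1.33 and 2.50). NG1 had 3.01, 2.93, 7.45 and 4.86 in unsorted 1, unsorted 2, sorted 1 and sorted 2. The 6 NG1 cells of sorted 1 also gave the highest NG1 values of Scn1a, Scn2a1, Scn7a, Scn9a and Scn11a. The test of NG1 used the unsorted libraries alone, with 11 and 22 cells, and gave a difference from other nodose neurons of 1.26 (SE 0.09, adjusted p = 5.57e-32, limma, higher in 2 of 2). The lowest Scn8a levels were in JG4 (0.158), JG3 (0.180) and NG12 (0.182). In all, 7 types were at 1 or more, with a median over the 24 types of 0.543.

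Scn1a followed Scn8a across types. The highest levels were in NG5 (2.72 ± 1.02 UMIs per 10000, n = 3), NG1 (2.49 ± 1.66, n = 4), NG2 (2.21 ± 0.274, n = 4) and JG5 (1.62 ± 0.627, n = 3). The order of the first 3 differed between libraries: NG2 was highest in both unsorted libraries, NG1 in sorted 1 and NG5 in sorted 2. NG5 had under 3 cells in unsorted 1, so its mean leaves that library out. At the other end, NG12, NG15, NG16, JG2 and JG3 were between 0.00249 and 0.00754, and 1 of 72 NG12 cells carried a UMI (1.39% of cells, exact 95% interval 0.0352 to 7.50). In endothelial cells, which are shallower, 1.96% of cells carried an Scn1a UMI. NG1 was higher than other nodose neurons by 0.91 (SE 0.08, adjusted p = 2.46e-22, limma), below the fold threshold of 1. The r between the log2 type levels of Scn1a and Scn8a was 0.81, and that between Scn1a and Scn10a was -0.54 over 24 types and -0.66 over the 18 nodose types.

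Scn7a, the sodium sensor, was strongly graded between types. It reached 12.8 ± 3.78 UMIs per 10000 in NG5 (n = 3), 10.6 ± 5.67 in NG1 (n = 4), 8.63 ± 2.22 in JG5 (n = 3) and 7.54 ± 1.63 in NG4 (n = 4). The highest type was NG5 in unsorted 2 and sorted 2, NG1 in sorted 1, and NG3 in unsorted 1, where NG5 has no value. NG12 was lowest, with 0.275, 0.633, 0.253 and 0.107 in the 4 libraries, wholly below NG14, the next type up (0.962, 1.23, 0.746 and 0.843). Scn7a was called higher in NG1 (1.29, SE 0.10) and NG4 (1.23, SE 0.10). It was called lower in NG12 (-1.30, SE 0.13), NG14 (-1.05, SE 0.08) and JG2 (-1.30, SE 0.13), with limma adjusted p-values from 9.33e-21 to 2.54e-07 for these 3. The NG14 call was lost without sorted 1 (-0.98) or sorted 2 (-0.96). Across types Scn7a tracked Scn1a (r = 0.85) and Scn8a (r = 0.77).

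Scn9a, a channel that amplifies slow depolarisations and is well known from nociceptors and sympathetic neurons, was the common member. Its level was at 1 or more in all 24 neuron types, from 1.37 ± 0.999 UMIs per 10000 in NG2 (n = 4) to 7.28 ± 2.82 in JG5 (n = 3). JG5 led only in sorted 2, while JG1 was highest in both unsorted libraries and NG1 in sorted 1. At least 1 UMI was seen in 97.9% of nodose cells (95% interval 97.0 to 98.6) and in 245 of 245 jugular cells. No type was called for it by limma in 14 tested, against 0.363% and 0.407% of pairs over all genes called higher and lower. At any fold, 7 of the 14 were at an unadjusted and 6 at an adjusted p under 0.05. With limma-voom none was called, and 8 were at an adjusted p under 0.05. JG5 and NG2, the ends of its order, had too few cells for this test. The largest limma difference was 0.49 in NG18 (SE 0.11, adjusted p = 0.00356), and NG12 was at -0.41 (SE 0.16, adjusted p = 0.0351). In NG12 the 5 cells of sorted 2 had no Scn9a UMI, while the other libraries were at 1.83, 2.39 and 1.40.

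Scn3a and Scn2a1, channels better known from the embryonic and central nervous system, were at low to moderate levels. Scn3a was highest in NG8 (1.5, 1.75, 1.14 and 1.57 UMIs per 10000 in the 4 libraries) and NG11 (1.49, 1.44, 1.38 and 1.28). The library ranges of NG8 and NG11 overlapped, and NG6, NG9, NG10 and NG13 followed between 1.02 and 1.32. NG3 stood at the bottom, at 0.00701 ± 0.0140 (n = 4). The limma differences were 0.64 in NG8 (SE 0.05, adjusted p = 3.98e-07) and 0.57 in NG11 (SE 0.05, adjusted p = 5.46e-08), both under the fold threshold. Scn2a1 was at 1 or more only in NG5 (1.16 ± 0.743, n = 3), with NG11 at 0.886 ± 0.0680 (n = 4). NG11 had the highest Scn2a1 level in unsorted 1, unsorted 2 and sorted 2, and NG5 in sorted 1. Scn2a1 and Scn10a ran opposite to each other across the 24 types (r = -0.70).

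**Figure D3:**
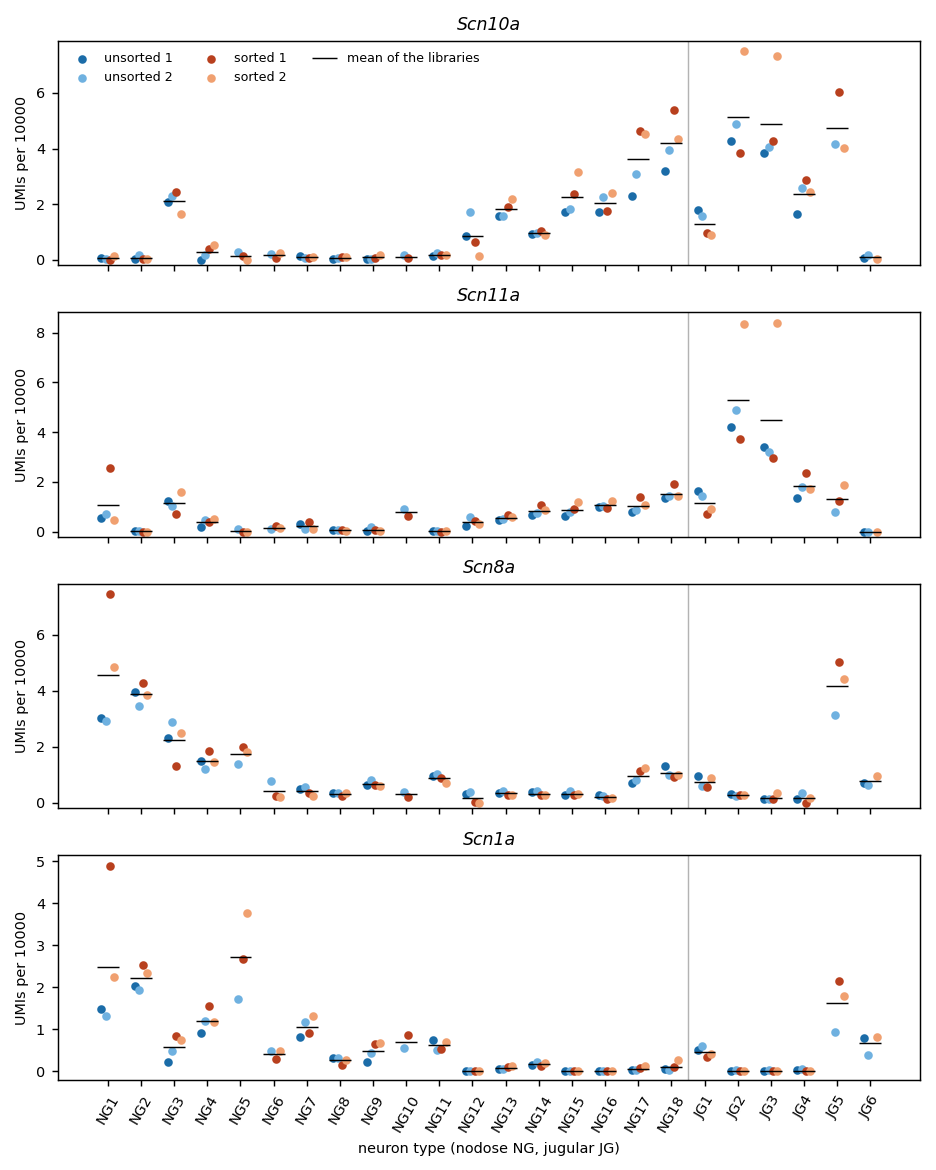
Levels of Scn10a, Scn11a, Scn8a and Scn1a (UMIs per 10000) in each neuron type, with 1 point per library that held at least 3 cells and a bar at their mean. Scn10a is high to the right (NG15 to NG18, JG2 to JG5) and in NG3. Scn11a is highest in JG2 and JG3, with NG1 (1.07) and NG3 (1.14) near NG16 (1.07) and NG17 (1.04). Scn8a is high to the left (NG1 to NG5) and in JG5. Scn1a is high in NG5, NG1, NG2 and JG5, but at 0.580 in NG3. Sorted 1 is the highest NG1 library in the Scn11a, Scn8a and Scn1a panels.

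The make-up of the family shifted along with these levels. The resistant share, Scn10a plus Scn11a as a percent of all 9 genes' level, was 67.8 ± 2.23% in JG2 (n = 4 libraries), 64.7 ± 5.77% in JG3 and 46.9 ± 10.7% in JG4. In the nodose ganglion it was 45.7 ± 4.95% in NG17, 39.6 ± 2.68% in NG16 and 36.4 ± 3.15% in NG18. It was 0.644 ± 0.629% in NG2 and 0.798 ± 0.821% in JG6 (n = 3). NG12 had the widest spread, 26.0% to 68.3% over its libraries, at the lowest family sum of any neuron type (3.56 ± 2.35 UMIs per 10000). The highest family sums were in JG5 (28.2 ± 7.72), NG5 (24.2 ± 6.81) and NG1 (24.1 ± 14.3).

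**Figure D4:**
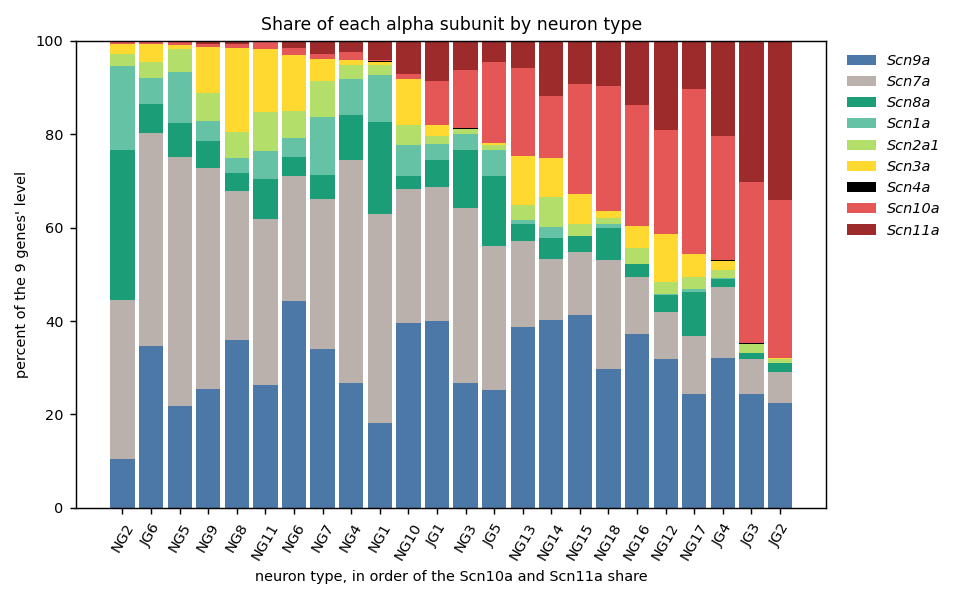
Percent of the summed level of the 9 genes contributed by each gene in each neuron type (mean over libraries), with types in order of the Scn10a and Scn11a share. The red bars grow from 0.644% in NG2 to 67.8% in JG2, and Scn9a is present throughout.

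Counts in single cells show whether a type's mean is shared among its cells. In NG3, Scn10a and Scn8a were both detected in 29 of 29 cells (exact 95% interval 88.1% to 100%), and in 79.3% of them after every cell was thinned to 10000 UMIs. NG18 had both in 94.6% of cells (63.5% thinned) and NG17 in 91.8% (52.8% thinned). In most cells of these 3 types both channels were thus detected. In NG1, Scn1a and Scn8a were seen together in 43 of 43 cells, and Scn10a with Scn8a in 25.6%, but in 0 of 41 cells after thinning (exact 95% interval 0% to 8.60%). For comparison, Scn10a was seen in 1.96% of satellite glia and 1.96% of endothelial cells, whose depth is lower than that of neurons.

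JG5 was uneven among its 25 cells. Scn8a was seen in 96% of them, Scn10a in 80%, Scn1a in 76% and Scn11a in 68%, and Scn10a with Scn8a in 76% (58.3% thinned). The Scn10a level per cell ran from 0 at the 10th percentile through a median of 3.75 to 9.10 UMIs per 10000 at the 90th. Depth was not low there, with a median of 63079 UMIs per cell. NG14, the largest type at 259 cells, was also mixed for Scn10a, with a 10th percentile of 0, a median of 0.727 and a 90th percentile of 2.11. Its library means were close together, at 0.922, 0.95, 1.04 and 0.898.

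Nodose and jugular neurons, which arise from the placodes and the neural crest, differed in both resistant channels in each library. In unsorted 1, unsorted 2, sorted 1 and sorted 2, nodose neurons had Scn11a at 0.550, 0.628, 0.798 and 0.627 UMIs per 10000, and jugular neurons at 2.1, 2.52, 2.67 and 3.72. The lowest jugular library lay above the highest nodose one. The log2 difference, nodose minus jugular, was -1.17 (SE 0.08, adjusted p = 4.21e-06, limma, lower in 4 of 4 libraries), and Scn11a was the only member called of 8 tested, against 1.27% of 8833 genes called. Without NG5 the difference was -1.16 and the count was again 1. Scn10a was at 1.09, 1.39, 1.48 and 1.29 in nodose and 2.36, 3.22, 3.55 and 3.81 in jugular neurons, again with no overlap. Its difference of -0.86 (SE 0.06, adjusted p = 4.82e-06, limma) stayed under the fold threshold. The resistant share was 19.5 ± 1.65% in nodose and 41.7 ± 2.01% in jugular neurons (n = 4 each), with no overlap between libraries.

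Among the toxin-sensitive genes the log2 differences were at most 0.51 in size on this scale, which compresses low levels. At an adjusted p under 0.05 and any fold, 3 members were higher in nodose neurons and 3 lower, against 25.2% and 19.1% of all genes tested, and the members' median difference was -0.03. Scn3a was higher by 0.51 (SE 0.03), at 0.671 ± 0.0791 UMIs per 10000 in nodose against 0.171 ± 0.0554 in jugular neurons (n = 4). With a pseudocount of 0.1 or with limma-voom the Scn3a difference was 1.53 or 2.43 and was called, and it was then larger in size than that of Scn10a (-1.23 and -1.21). So the order of the members by size of difference depends on how low values are treated. Scn2a1 was higher by 0.23 (SE 0.04) and Scn1a by 0.11 (SE 0.03), which was 0.070 (adjusted p = 0.109, limma) without NG5, while Scn9a was lower by 0.25 (log2 difference -0.25, SE 0.05). Scn7a, at -0.07 (SE 0.05, adjusted p = 0.261, limma), did not pass. Its sign turned to 0.71 with equal weights for the 15 nodose and 4 jugular types that had at least 3 cells in every library. That setting leaves out JG5 and JG6, the jugular types highest in Scn7a (8.63 and 5.54 UMIs per 10000). The weighting and the types left out were not tested apart. Library ranges did not overlap for 5 members, against 26.5% of all genes.

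Scn8a had the same mean in both ganglia but not in each library. In the order given above, nodose neurons had 0.773, 0.741, 0.711 and 0.654 UMIs per 10000, and jugular neurons 0.455, 0.605, 0.812 and 1.04. Jugular neurons were thus lower in both unsorted libraries and higher in both sorted ones. The pooled difference was 0.00 (SE 0.08, adjusted p = 0.973, limma), made of 0.20 in the unsorted and -0.19 in the sorted libraries. The difference between these, -0.40 (SE 0.09), had a raw limma p of 0.00325 and an adjusted p of 0.231 over 8833 genes. JG5 made up 5.88% (2 of 34), 9.56% (13 of 136), 12% (3 of 25) and 14% (7 of 50) of the jugular neurons in those libraries, so these shares rest on few cells. Without JG5 the jugular Scn8a levels were 0.397, 0.337, 0.239 and 0.498, all below the nodose ones. The sort, the genotype and the library cannot be told apart here.

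**Figure D5:**
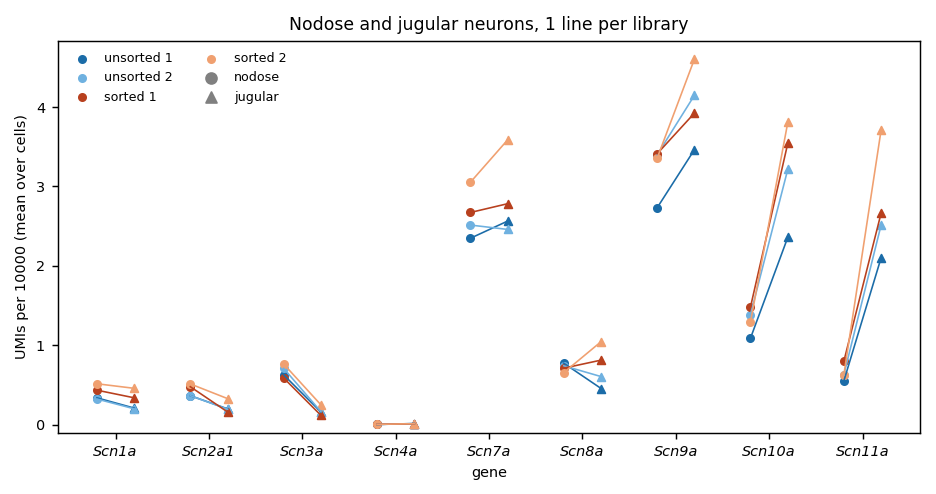
Mean level of each gene (UMIs per 10000) in nodose (circles) and jugular (triangles) neurons, with 1 line per library. Scn10a and Scn11a rise towards jugular neurons in all 4 libraries, Scn3a falls in all 4, and the Scn8a lines cross.

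Glial marker sums (Apoe, Fabp7, Sox10) moved with both library and ganglion. For unsorted 1, unsorted 2, sorted 1 and sorted 2 they were 22.2, 20.9, 2.14 and 0.738 UMIs per 10000 in nodose neurons. In jugular neurons they were 11.3, 7.45, 1.81 and 0.230, and in satellite glia 922. The Scn11a difference between ganglia was -1.28 in the sorted and -1.06 in the unsorted libraries, and that of Scn10a was -0.97 and -0.754. The part of glial transcripts in these differences was not tested.

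Against non-neuronal cells the family was higher in neurons throughout. In the 2 unsorted libraries, all 8 tested members were higher in neurons than in satellite glia at an adjusted p under 0.05 and any fold. The same held against endothelial cells, where over all genes 41.2% were higher, and against satellite glia 42.2%. A gene could enter these tests by its level in neurons alone. Only Scn9a was above the filter level of 0.1 in both glial profiles (0.233 and 0.279), and no member was in both endothelial ones. For most members a higher level in neurons was thus largely set by the filter. Called past the fold threshold in both comparisons were Scn9a (1.73 and 1.95), Scn7a (1.56 and 1.64) and Scn10a (1.31 and 1.27). These 3 calls of 8 stand against 5.34% of 9382 genes called higher against glia and 6.33% of 9722 against endothelial cells. The other members were under the fold threshold, with Scn11a at 0.83 and 0.85, Scn8a at 0.65 and 0.78, Scn3a at 0.67 and 0.61, Scn2a1 at 0.42 and 0.42, and Scn1a at 0.32 and 0.37 against glia and endothelial cells. In these libraries Scn10a, Scn2a1 and Scn3a had no UMI in glia, and Scn2a1 and Scn8a none in endothelial cells, so those sizes depend on the pseudocount. The members' median differences were 0.75 and 0.82, where the median over all genes was 0.11 and 0.09. Scn2a1 and Scn3a had no UMI in 51 satellite glia, and Scn2a1 and Scn8a none in 51 endothelial cells, which allows up to 5.88% of cells in each case.

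The summed family level in glia was 6.23% of that in neurons, and the summed level of 4 neuronal genes (Slc17a6, Prph, Snhg11, Stmn2) was 5.67%. In endothelial cells these were 2.93% and 1.85%. These values rest on few UMIs, with 43 of the 9 genes together in glia and 16 in endothelial cells. Over cells, Scn1a was at 0.0561 UMIs per 10000 in glia (4 UMIs) against 0.363 in neurons. Scn8a was at 0.0978 (7 UMIs) against 0.720, while Scn10a was at 0.00612 (1 UMI) against 1.62. The part of free RNA was not tested. Transcripts carried over from neurons and a low level of the cell's own cannot be told apart in these means.

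Sympathetic neurons, 19 cells from the unsorted libraries, had a profile of their own that was not tested for lack of cells. Scn9a was at 2.58 and 1.91 UMIs per 10000 and Scn3a at 1.75 and 1.52, in unsorted 1 and unsorted 2. Scn3a was seen in 19 of 19 cells, and NG8, the highest sensory type in these libraries, was at 1.5 and 1.75, so their ranges overlapped. Scn7a was at 0.225 and 0.0954, below every sensory type with a value in these libraries, though NG12 was at 0.107 in sorted 2. Scn10a was at 0.0107 and 0. Neuronal genes were at 118% of their level in sensory neurons there, while the family sum was 50.5%.

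Between sorted and unsorted neurons no member was called of 8 tested, against 0.404% of 8912 genes. At an adjusted p under 0.05 and any fold, Scn1a (0.16, SE 0.04) and Scn2a1 (0.13, SE 0.04) were higher in the sorted libraries, against 16% of all genes. These 2 were also the members at an unadjusted p under 0.05, and none of the 8 passed with limma-voom on UMI sums. The other log2 differences, sorted minus unsorted, were 0.18 for Scn7a, 0.14 for Scn11a, 0.12 for Scn10a, 0.11 for Scn9a and 0.02 for Scn3a, of which those of Scn7a, Scn9a and Scn3a turned sign in an alternative. The Scn8a means were 0.720 and 0.722 UMIs per 10000 in sorted and unsorted neurons.

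Partners of the channel were looked at as a list of 18 genes: beta subunits, fibroblast growth factor homologues, ankyrin, spectrin, adhesion molecules and regulators of channel traffic. Of 15 tested between nodose and jugular neurons, 1 was called, lower in nodose neurons, against 1.27% of all genes. At an adjusted p under 0.05 and any fold 4 were higher and 6 lower, against 25.2% and 19.1% of all genes. The call was Tmem233 (0.463 against 8.0 UMIs per 10000, log2 difference -2.59, SE 0.10), which encodes a small membrane protein. Of 210 partner and type pairs, 5 were called higher and 5 lower, against 0.363% and 0.407% of pairs over all genes. Contactin 1 (Cntn1), an adhesion molecule that binds sodium channels, was called higher in NG1 (1.76) and NG11 (1.03) and lower in NG12, NG13, NG14, NG15 and NG16 (-1.22 to -1.60). Tmem233 was called higher in JG2 (2.05) and NG18 (1.29), S100a10, an annexin partner, in NG12 (1.72). Of 16 partners tested in neurons against glia, 7 were called higher and 1 lower, against 5.34% and 3.34% of all genes, and against endothelial cells 7 were called higher, against 6.33%. By smallest adjusted p these were Fgf13 (2.73), S100a10 (2.12), Tmem233 (1.28) and Dpysl2 (1.42) against glia, where the lower one was Pdzd2 (-1.09). Against endothelial cells they were Fgf13 (2.76), Dpysl2 (2.06), Ank3 (1.81) and S100a10 (1.73). Partners, too, could pass the filter in these comparisons by their level in neurons alone. Scn4b, a beta subunit, was highest in JG5 at 3.34 UMIs per 10000. Across the 24 types Cntn1 ran with Scn8a at r = 0.85.

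Among 3654 genes whose highest type level was at least 1 UMI per 10000, those most like each member were ranked by r on the log2 level over the 24 types. Scn8a was most like Adam23 (0.94), Nat8l (0.93) and Fam160b2 (0.92). Scn1a was most like Chgb (0.90) and Shh (0.88), and genes like Scn7a included Rnf145 (0.86) and Scn1a (0.85). Scn10a was most like Cd9 (0.90), Vps4b (0.88) and Tusc5 (0.83), and Scn11a like Cd55 (0.90), Mgat4b (0.88) and Gpd1l (0.86). Scn3a was most like Fam19a5, Tub and Ddc (each 0.83), and Scn2a1 like Phlda3 (0.83), Ufsp1 (0.82) and Pnmal2 (0.82). The broad Scn9a had weaker likeness, with Ip6k1 first at 0.76. With 24 points from 4 shared libraries and so many genes ranked, these r values are a description.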

How the data were processed

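RNA of single cells from the vagal ganglion complex was measured with 10x Genomics 3' v2 single-cell chemistry, after papain, collagenase and dispase digestion and a density gradient, per the labels' protocols. Cell Ranger 2.1.1, Seurat and mm10 are named per the submitters' processing notes. No source used here gives the filters, the doublet handling or the clustering. Expression was deposited as natural log values, ln(1 + UMIs per 10000), from which each gene's UMI count was read back; 100% of non-zero values were whole within 0.01. All 1825 cells were kept and no doublet caller was run. The deposited annotation gave each cell's library and cluster, a UMI count and a mitochondrial fraction, which was not used.

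Linear values were averaged per library and class, so the library was the replicate. Type levels needed at least 3 cells in a library and tested profiles at least 10. A gene entered a test if its mean passed 0.1 UMIs per 10000 in a number of profiles no smaller than the smaller group. The trend version of limma 3.58.1 (R 4.3.3) was run two-sided on log2(mean + 1), with the library as a block (not for sorted against unsorted) and Benjamini-Hochberg adjustment over all genes tested. This scale understates changes of low genes. Exact Clopper-Pearson 95% intervals and limits from a count of 0 (3 cells) cover counting error only. Thinning to 10000 UMIs left out 79 shallower cells. Scripts were checked on simulated data. Alternatives were another pseudocount (0.1), no filter, limma-voom on UMIs, median centring, no block and 5 cells per profile. Others were equal weights for types, no cells in the highest 5% of UMI counts, and each library left out. Equal weights used only the 19 types with at least 3 cells in every library, which leaves out NG5, NG6, NG10, JG5 and JG6. By rule every member is named in each comparison of classes, and up to 4 called partners by smallest adjusted p; for types, called members and the ends of each order are printed. The members and lists were chosen with earlier results of these data known. Sequences are from RefSeq (GRCm38.p6). Some genes that these lists and rules named are not reported here, and counts and sums leave them out.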

Additional observations from a re-analysis of the deposited data

Results flagged for a closer look

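In nodose neurons the Scn9a level was 2.73 UMIs per 10000 in unsorted 1 and 3.40, 3.41 and 3.35 in unsorted 2, sorted 1 and sorted 2. The gap of unsorted 1 to the nearest library was 0.916 of the whole range, above Dixon's 95% critical value for 4 samples. Of 18 sets of 4 libraries looked at, this was the only one past that value, and chance gives about 1 in 20.

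The Scn8a difference between nodose and jugular neurons was 0.40 smaller in the sorted than in the unsorted libraries (-0.396 on the log2 scale, SE 0.09, adjusted p = 0.231, limma). Both unsorted libraries had more Scn8a in nodose neurons and both sorted libraries more in jugular neurons. Over all genes 1048 of 8833 had a raw p under 0.05 in this test and 2 passed adjustment. The share of JG5 cells among the jugular neurons, given above, rests on 2 to 13 cells per library. It was higher in both sorted libraries than in both unsorted ones, and its part was not tested beyond the levels without JG5.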

How the results depend on the processing

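Counts of called members depended on how low values were treated. The share of all genes called under each alternative is not given here, so a changed count does not single out the members. For nodose against jugular neurons the count of 1 became 3 with a pseudocount of 0.1, 4 with limma-voom and 2 without type JG6, an alternative chosen, like those without JG5 or NG5, after seeing the data; it was 1 with each library left out. For neurons against satellite glia the count of 3 became 8 with the pseudocount of 0.1 and 7 with limma-voom, and against endothelial cells 8 with either. Over types the count of 14 became 47 with the pseudocount of 0.1, 51 with limma-voom and 26 with 5 cells per profile, which tested 23 types. Leaving out a library gave 10 to 12, which includes lost tests. NG1, NG4 and NG12 had 10 or more cells in only 2 libraries and could not be tested without either of these. The count of 0 for sorted against unsorted neurons was 0 in every alternative run. Small differences changed sign. For nodose minus jugular neurons, Scn7a was 0.043 with limma-voom, 0.71 with types weighted equally (JG5 and JG6 left out), 0.19 without JG5 and 0.11 without JG6. Scn8a was -0.12 with limma-voom, -0.012 with median centring, -0.19 in the sorted libraries alone, -0.012 without NG5 and -0.019 without the cells in the highest 5% of UMI counts. With 1 library left out it ran from -0.090 (without unsorted 1) to 0.11 (without sorted 2), and was -0.034 without unsorted 2. For sorted minus unsorted neurons, Scn3a was -0.020 with equal weights and ran from -0.035 (without sorted 2) to 0.078 (without sorted 1), with -0.0088 without unsorted 1. Scn7a was -0.023 with limma-voom. Scn8a was 0.073 with equal weights, 0.027 without the deepest cells, and from -0.0043 (without unsorted 2) to 7.78e-05 (without unsorted 1). Scn9a ran from -0.0028 (without unsorted 1) to 0.23 (without unsorted 2). The cause was not tested. The 14 called type differences kept their direction in all 141 alternative values, with 7 losses of the call, each given in the text above. Leaving out the library block changed no count where it was used. The sorted and unsorted libraries came from mice of different genotype, and the labels name no pairs, so no paired analysis was run between them. Depth limits shares of cells in glia, endothelial cells and JG6.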
